A study of Ophiorrhiza pumila with 6 samples.

Results

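Transcripts of genes that belong to the surface layer and the lower face of shoot organs were examined in hairy roots (HR) of *Ophiorrhiza pumila*, a medicinal plant whose HR make camptothecin. They are the contigs described as protodermal factor 1 (c27846_g1_i1), protodermal factor 2 (c29051_g1_i1), YABBY 4-like (c42908_g1_i1) and YABBY 1-like (c494_g1_i1), 4 of the 59855 contigs of the *de novo* assembly. They were chosen by their measured levels in ERF1i against GUSi in these same libraries, so their values in that comparison are given as a description, with no test.

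The 6 libraries hold RNA of 3-week-old HR, 2 lines for each of 3 RNA interference (RNAi) constructs. GUSi-9 and GUSi-10 carry a hairpin against the bacterial reporter gene GUS and are the control, ERF1i-7 and ERF1i-19 carry one against *OpERF1*, and ERF2i-2 and ERF2i-3 carry one against *OpERF2*; both targets encode AP2/ERF transcription factors. All 6 lines were raised with *Agrobacterium rhizogenes* (pRi15834) and the pGWB80 vector under antibiotic selection. Each line came from its own transformation and gave 1 library, so every group has n = 2 lines and the error of a single line is unknown. In the deposited tables the values of the 2 ERF2i clones carry swapped clone numbers between the sample labels and the annotation table, for all 59855 contigs; the sample labels are followed here.

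Libraries held 11517610 to 13199946 expected counts, and the contig of *OpERF1* (c15284_g1_i1) had 3161 and 2099 counts in the GUSi lines, 53 and 276 in the ERF1i lines and 9533 and 8119 in the ERF2i lines. Here and below, paired values of single lines are given in the order GUSi-9 and GUSi-10, ERF1i-7 and ERF1i-19, ERF2i-2 and ERF2i-3. Fragments of the hairpin itself may be counted for this contig. Root markers were present in every library: a SHORT-ROOT-like contig (c25046_g2_i1) had 218 to 646 counts, and the contigs described as casparian strip membrane protein 1-like, which mark the endodermis, had 9 to 1019. Their levels differed between lines. SHORT-ROOT-like had 646 and 642 counts in the GUSi lines, 513 and 323 in the ERF1i lines, and 218 and 222 in the ERF2i lines. The casparian strip contig c7393_g1_i1 had 208 and 407 counts in the GUSi lines and 515 and 142 in the ERF1i lines. For c44979_g1_i1 these were 512 and 1019, and 803 and 281, while the low c20771_g1_i1 had 15 and 13 in the ERF1i lines. The Rubisco small subunit, which marks green tissue, had at most 13 counts in one contig (c28320_g1_i2) and 0 in the other (c18671_g1_i1).

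In *Arabidopsis*, PDF1 is a proline-rich protein of the cell wall made in the outermost (L1) layer of meristems and young organs. PDF2 is a class IV homeodomain-leucine zipper (HD-ZIP IV) factor that, with its close relative ATML1, gives that layer its epidermal identity and acts on *PDF1* among other genes. YABBY factors are a small family of seed plants with a zinc finger and an HMG-like domain; most of them are made on the lower (abaxial) side of leaves and floral organs, outside the meristem, and they are not known as genes of the root. The root epidermis uses other HD-ZIP IV factors, among them GLABRA 2.

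The protodermal factor 1 contig is 1003 bp long and its best protein hit, a bean protein of unknown function, was similar over 93 of 110 aligned residues (84.5%). The protodermal factor 2 contig is 2940 bp long, with 690 similar residues of 727 (94.9%), and its annotated biological processes include trichome morphogenesis and cotyledon development. YABBY 4-like (809 bp) had 180 similar residues of 197 (91.4%) against a grapevine protein that is itself named axial regulator YABBY 1, so its number within the family is uncertain. YABBY 1-like (834 bp) had 198 similar residues of 208 (95.2%) against GRAMINIFOLIA of *Antirrhinum*, and its annotation includes abaxial cell fate specification. Each of the 4 is the only contig of its assembly gene, so no second isoform took a part of its reads.

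Protodermal factor 1 had 0 expected counts (read pairs that RSEM assigned to the contig) in GUSi-9 and GUSi-10, 138 in ERF1i-7, 567 in ERF1i-19, 0 in ERF2i-2 and 4 in ERF2i-3. Protodermal factor 2 had 1 count in each GUSi line, 108 and 517 in the ERF1i lines, and 3 in each ERF2i line. The transcript of the L1 protein and that of the L1 regulator were thus read in every ERF1i library and all but missing from the other 4.

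YABBY 4-like had 0 and 0 counts in the GUSi lines, 36 in ERF1i-7, 172 in ERF1i-19, 0 in ERF2i-2 and 2 in ERF2i-3. YABBY 1-like had 0 and 0 counts in the GUSi lines, 27 and 117 in the ERF1i lines, 0 in ERF2i-2 and 2 in ERF2i-3. For all 4 contigs the ERF1i lines lay above every other line, ERF1i-19 above ERF1i-7, and none of the ERF2i lines came near either.

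Summed over the 4 contigs, the libraries held 1 and 1 counts (GUSi), 309 and 1373 (ERF1i-7 and ERF1i-19), and 3 and 11 (ERF2i-2 and ERF2i-3). Per library total, the sum in ERF1i-7 was 21.5% of that in ERF1i-19, and in ERF2i-3 0.841%. RNA came from whole roots, so fewer cells of a type and less RNA per cell cannot be told apart.

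**Figure D1:**
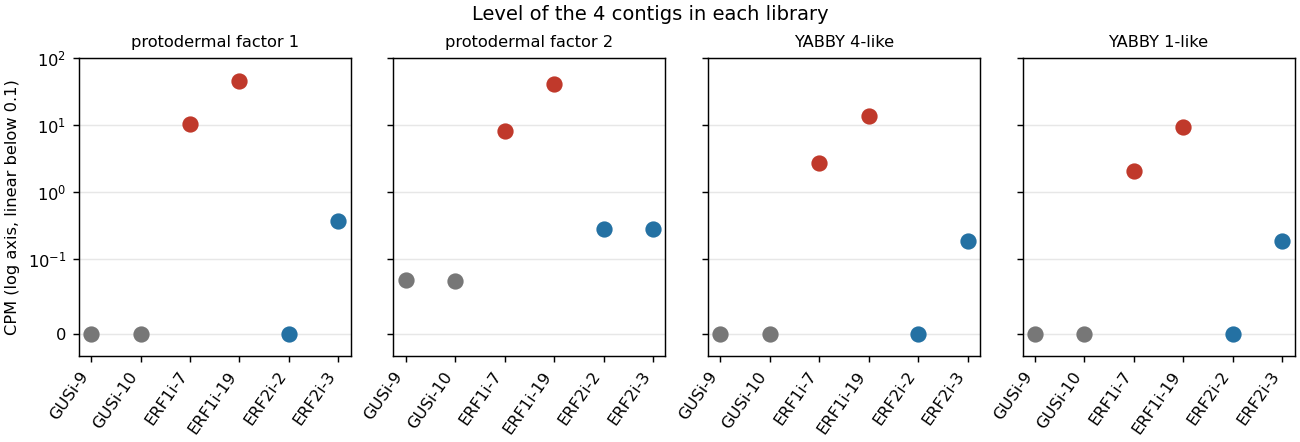
Level of each of the 4 contigs in CPM (expected counts scaled by library size and TMM; log axis that turns linear below 0.1) in the 6 libraries, 1 point per library (grey GUSi, red ERF1i, blue ERF2i). The ERF1i points lie between 2.07 and 45.2 CPM and no other point is above 0.377 CPM.

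In CPM, protodermal factor 1 stood at 27.9 ± 24.5 in ERF1i (mean ± SD, n = 2 lines), protodermal factor 2 at 24.7 ± 23.3, YABBY 4-like at 8.24 ± 7.75 and YABBY 1-like at 5.70 ± 5.14. The SD is nearly as large as the mean in each case because the 2 lines differ. A count of 3, the limit that a count of 0 allows, corresponds to 0.227 to 0.260 CPM by library total.

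Set against the GUSi pair with 3 counts taken for the pair where it had 0, protodermal factor 1 was at least 93.3-fold higher in ERF1i-7 and at least 402-fold higher in ERF1i-19, per library total. YABBY 4-like was at least 24.3-fold and at least 122-fold higher in the same lines, and YABBY 1-like at least 18.2-fold and at least 82.9-fold. Protodermal factor 2, with 2 counts over the GUSi pair, was 109-fold higher in ERF1i-7 (95% counting interval 29.6 to 916, exact binomial) and 549-fold higher in ERF1i-19 (151 to 4548). Here and below such intervals cover counting error only, and leave out the spread between lines. Where an interval sets one of the 4 contigs in an ERF1i line against GUSi or ERF2i, those ERF1i counts chose the contig. Such an interval is thus no test of a rise.

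All 4 were among the 884 contigs called as risen in ERF1i against GUSi (2.65% of the 33315 tested, with 468 or 1.40% fallen; edgeR's quasi-likelihood test at an adjusted p under 0.05), and the choice of the contigs used this comparison, so nothing is read from it. All 4 passed the filter on low counts only through the ERF1i libraries.

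Levels of different genes can be compared per length, in FPKM. Protodermal factor 1 was the highest of the 4 in both ERF1i lines, at 12.9 FPKM in ERF1i-7 and 55.8 in ERF1i-19, above 81.0% and 95.8% of all contigs of those libraries. YABBY 4-like followed at 4.39 and 22.1 FPKM (above 60.0% and 88.4% of contigs). Protodermal factor 2 and YABBY 1-like were lowest and changed places, with 3.03 and 3.16 FPKM in the lower line and 15.2 and 14.5 FPKM in the higher one. Those contigs were thus middling transcripts in ERF1i-7 and well-expressed ones in ERF1i-19, where protodermal factor 2 lay above 83.5% and YABBY 1-like above 82.7% of contigs.

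ERF2i libraries took no part in choosing the contigs, while the GUSi libraries they are compared with did. All 4 were nearly unread in both groups, with 2 to 6 counts over the ERF2i pair and 0 to 2 over the GUSi pair, and they entered the test only through their ERF1i counts. A difference of ERF2i from GUSi was thus not detectable at this depth, and nothing is read from the test. Protodermal factor 2, the contig with counts in both groups, had 6 over the ERF2i pair and 2 over the GUSi pair. Its log2 difference of 1.84 rests on these few counts, and no difference is read from it. Levels like those of ERF1i were not reached in ERF2i. ERF1i-7, the lower ERF1i line, exceeded the ERF2i pair 62.2-fold for protodermal factor 1 (23.8 to 232), 32.5-fold for protodermal factor 2 (14.4 to 90.4), 32.5-fold for YABBY 4-like (8.36 to 278) and 24.3-fold for YABBY 1-like (6.12 to 211).

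The 4 contigs differed between the ERF1i lines by nearly one ratio. ERF1i-19 exceeded ERF1i-7 per library total 4.31-fold for protodermal factor 1 (3.57 to 5.22), 5.02-fold for protodermal factor 2 (4.07 to 6.23), 5.01-fold for YABBY 4-like (3.48 to 7.39) and 4.54-fold for YABBY 1-like (2.97 to 7.18). All 4 intervals overlap, so an order among the ratios was not detectable at this depth. Counts over the same libraries share their RNA, and with 1 library per line these ratios compare 2 libraries.

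Few contigs were that much higher in ERF1i-19 than in ERF1i-7. Contigs higher in ERF1i-7 by as much were not counted. Of 26510 contigs with at least 20 counts in both, the median ratio was 1.01 and the range from the 5th to the 95th percentile was 0.619 to 1.61. The lowest ratio of the 4 was reached by 43 (0.162%), the 4 themselves among them. Of 847 other contigs that rose in ERF1i and had as many counts, the median ratio was 1.04 and 14 (1.65%) reached it. *OpERF1*, the target of the hairpin, was itself 5.46-fold higher in ERF1i-19 than in ERF1i-7 (4.06 to 7.47), at 18.9 against 3.46 FPKM; with 2 lines no relation between its level and that of the 4 contigs could be tested.

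**Figure D2:**
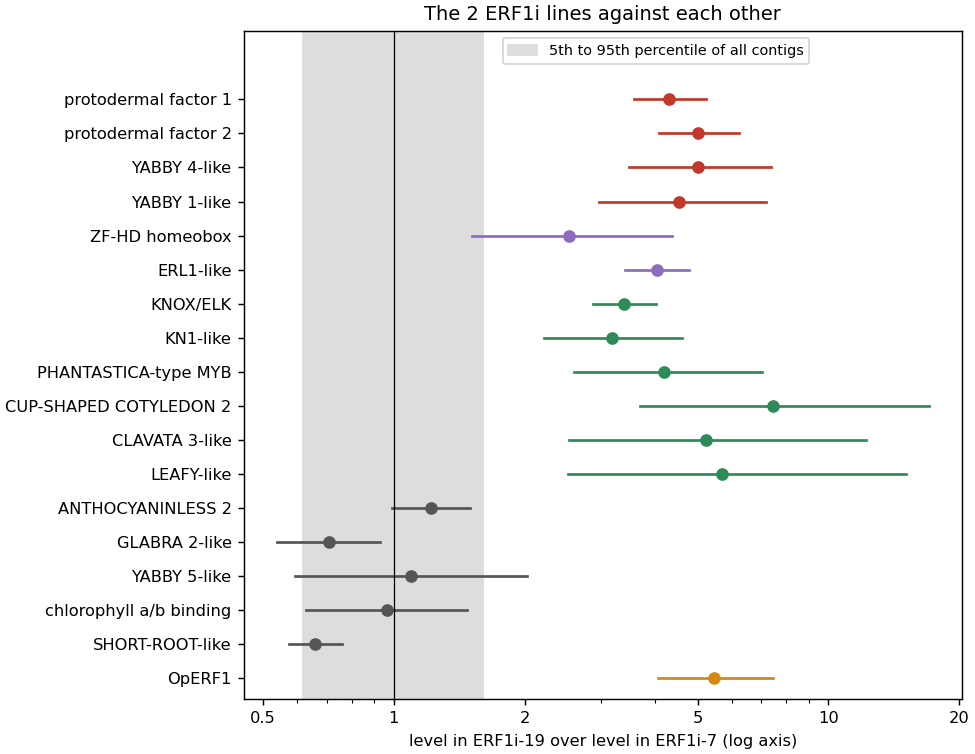
Ratio of the level in ERF1i-19 to that in ERF1i-7 per library total (log axis), with points for single contigs and bars for the 95% counting interval: the 4 contigs in red, contigs of like profile in purple, shoot regulators in green (the last 3 of them chosen after their values were seen), other family members, a chlorophyll a/b binding protein and a SHORT-ROOT-like contig in grey, and *OpERF1* in orange. The band spans the 5th to 95th percentile of 26510 contigs (0.619 to 1.61), and the 4 contigs lie at 4.31 to 5.02.

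The other contigs of the same families fall into those that passed the count filter and those that did not. The filter itself favours contigs with more counts, so the former do not speak for the families as a whole. The lists drawn from the deposited descriptions held 17 further protodermal or HD-ZIP IV contigs, of which 6 passed the count filter, and 2 further YABBY contigs, of which 1 passed; 0 of these 7 were called in ERF1i or in ERF2i by edgeR's quasi-likelihood test (2 at an unadjusted p under 0.05 in ERF1i and 1 in ERF2i). Of all tested contigs, 13.2% rose (4393) and 9.88% fell (3293) in ERF2i, and an unadjusted p under 0.05 was reached by 20.6% in ERF1i and 37.9% in ERF2i. In the protodermal and HD-ZIP IV list the rises in ERF1i were 2 without ERF1i-7 and 1 without ERF1i-19. In ERF2i they were 2 without either ERF1i line, and 1 without ERF2i-2, with only 4 libraries or without the filter, while 1 contig fell without TMM scaling and by limma-trend. GLABRA 2-like (c33613_g2_i1), a factor that in *Arabidopsis* stops root hair formation, had 144 and 155 counts in the GUSi lines, 136 and 92 in the ERF1i lines, and 128 and 133 in the ERF2i lines. It differed from GUSi by a log2 of −0.27 in ERF1i (SE 0.19, adjusted p = 0.464, edgeR) and its ratio between the ERF1i lines was 0.709 (0.538 to 0.930).

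Anthocyaninless 2, an HD-ZIP IV factor of the layer under the epidermis and of the root in *Arabidopsis*, was present as 2 contigs. The contig c32129_g1_i2 had 151 and 127 counts in the GUSi lines, 173 and 201 in the ERF1i lines, and 130 and 125 in the ERF2i lines. Its log2 difference from GUSi in ERF1i was 0.55 (SE 0.16, adjusted p = 0.108, edgeR), and that of c32129_g2_i1 was also 0.55 (SE 0.24, adjusted p = 0.252). Both ERF1i lines lay above both GUSi lines for each contig, though the differences did not pass the test.

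GLABRA 2 expression modulator contigs (c28230_g2_i1 and c28230_g2_i2) had log2 differences of 0.08 (adjusted p = 0.782) and 0.14 (adjusted p = 0.563) in ERF1i, and −0.13 and −0.25 in ERF2i (edgeR, adjusted p = 0.514 and 0.179). A contig taken up by its best hit to transparent testa glabra 2 (c22522_g1_i1), which is a WRKY factor and no HD-ZIP protein, had 0.57 (adjusted p = 0.144) in ERF1i, with 3011 counts in ERF1i-7 and 2090 in ERF1i-19. YABBY 5-like (c11793_g2_i1) had 19 and 12 counts in the GUSi lines, 23 and 24 in the ERF1i lines, and 23 and 7 in the ERF2i lines. Its ERF1i lines were thus alike (ratio 1.09, 0.591 to 2.03), and it differed from GUSi by 0.72 (SE 0.52, adjusted p = 0.495, edgeR), so this YABBY contig was also read in GUSi.

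The 12 family contigs under the count filter are given as well, although the rule for naming left them out. A ROC3-type HD-ZIP IV contig (c5893_g1_i1) had 0 and 0 counts in the GUSi lines, 9 and 22 in the ERF1i lines, and 0 and 1 in the ERF2i lines. A contig whose best hit is a YABBY 2 protein (c36138_g1_i1) had 1 and 3 counts in the ERF1i lines and 0 elsewhere. A ROC8-like contig (c8810_g1_i1) went another way, with 8 and 18 counts in the ERF2i lines, 2 and 4 in the ERF1i lines, and 1 in each GUSi line. All 12 together had 1 and 1 counts in the GUSi lines, 17 and 51 in the ERF1i lines, and 8 and 19 in the ERF2i lines, so ERF2i-3 lay above ERF1i-7. The other 11, from which the ROC8-like contig was set apart after its values were seen, together had 0 counts in both GUSi lines, 15 and 47 in the ERF1i lines, and 0 and 1 in the ERF2i lines. Of these 11, 10 were read in ERF1i and 1 in no library. Only with the ROC8-like contig left out did the summed counts lie as those of the 4 contigs did, and single contigs were too low to test. Without the filter the protodermal and HD-ZIP IV list, 16 contigs with counts, had a median log2 difference of 3.13 in ERF1i, which rests on contigs at 0 in GUSi and so on the prior count.

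**Figure D3:**
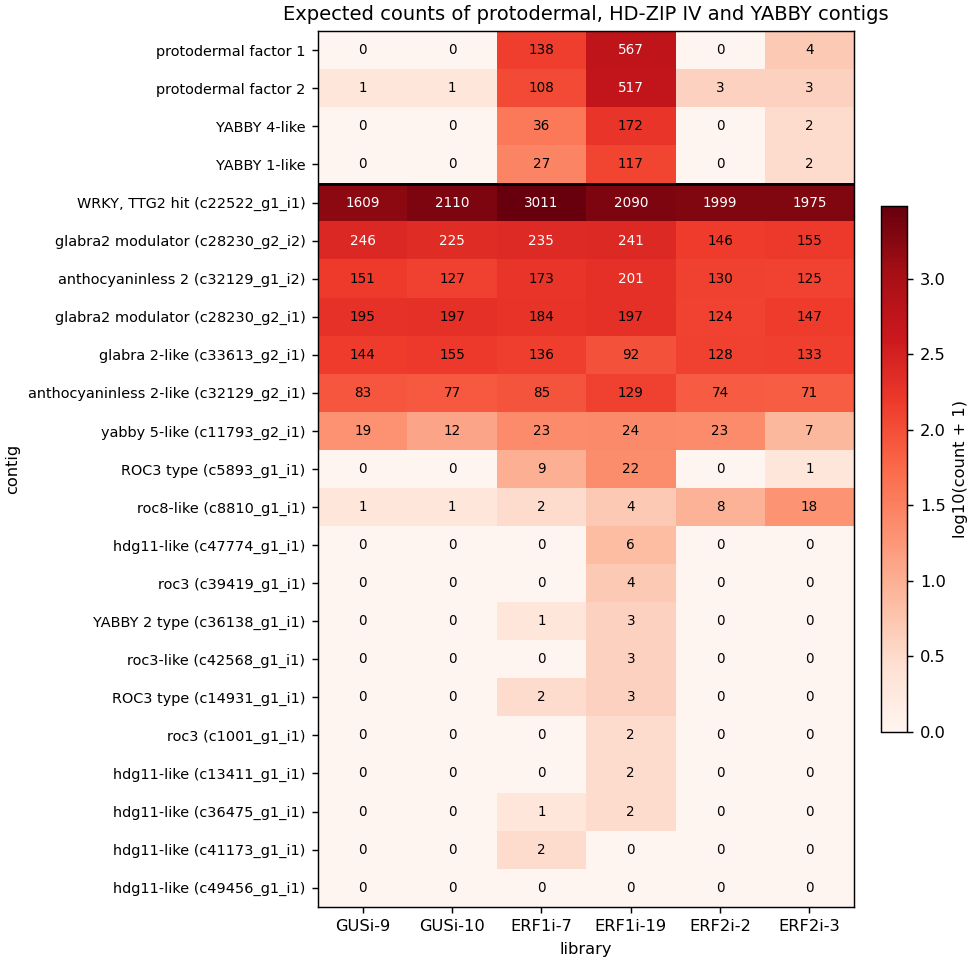
Expected counts (printed in each cell, colour on a log10 scale) of the 4 contigs, above the line, and of the other 19 contigs of the protodermal, HD-ZIP IV and YABBY lists, below it, in the 6 libraries. Contigs that passed the filter, such as anthocyaninless 2 at 125 to 201 counts, are present in every library, and the 4 contigs reach 27 to 567 counts in ERF1i and at most 4 elsewhere.

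Besides YABBY genes, the upper and lower faces of leaves are set by HD-ZIP III factors, KANADI, AUXIN RESPONSE FACTOR 3 and 4, and the MYB factor PHANTASTICA. Of 14 such contigs tested, none of them described as KANADI, 0 were called in ERF1i by edgeR's quasi-likelihood test and 1 rose by DESeq2. In the edgeR fit 5 had an unadjusted p under 0.05, where 20.6% of all contigs did. The median log2 difference of the 14 was −0.17 against 0.00 over all tested contigs. ATHB-15-like (c31590_g2_i1), an HD-ZIP III factor also active in root vessels, had 1684 and 1915 counts in the GUSi lines and 1295 and 1153 in the ERF1i lines, a log2 difference of −0.43 (SE 0.11, adjusted p = 0.0796). Auxin response factor 4 (c25481_g1_i1) had 478 and 518 counts in the GUSi lines and 301 and 366 in the ERF1i lines, −0.45 (SE 0.15, adjusted p = 0.143, edgeR).

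A contig with a PHANTASTICA best hit (c30616_g2_i1) was the polarity contig closest to the YABBY pair in profile between the ERF1i lines. It had 8 and 8 counts in the GUSi lines, 22 and 88 in the ERF1i lines, and 15 and 6 in the ERF2i lines, a log2 difference of 2.89 in ERF1i (SE 0.77, adjusted p = 0.0894, edgeR) and a ratio between the ERF1i lines of 4.19 (2.60 to 7.03). It shares its assembly gene with another contig (c30616_g2_i2), so the split of its reads is uncertain.

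In ERF2i, 7 of the 14 polarity contigs rose and 0 fell (median 0.71), where 13.2% of all contigs rose. All 7 are HD-ZIP III contigs, from 3 assembly genes, so they share reads. ATHB-15-like (c31590_g2_i1) had 2364 and 2470 counts in the ERF2i lines, a rise of 0.82 (SE 0.11, adjusted p = 0.00327, edgeR), and REVOLUTA-type c29872_g1_i3 rose by 0.99 (SE 0.15, adjusted p = 0.0057). The count of rises was 4 without GUSi-9, 3 without GUSi-10, and 1 without ERF2i-2 or ERF2i-3. Without TMM scaling 6 rose and 2 fell, both auxin response factor 3 contigs, in a fit whose median over all contigs was −0.24.

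Shoot meristem and leaf growth genes were mixed. Of 70 tested contigs 2 rose (2.86%, against 2.65% of all contigs) and 3 fell in ERF1i (4.29%, against 1.40%), and in ERF2i 0 rose and 11 fell (15.7%, against 9.88%). The 2 rises were both homeobox factors of the KNOX class, which keep shoot meristem cells undifferentiated. KN1-like c23142_g1_i1 had 3 and 3 counts in the GUSi lines, 42 and 127 in the ERF1i lines, and 3 and 11 in the ERF2i lines. Its log2 difference in ERF1i was 4.89 (SE 0.82, adjusted p = 0.0302, edgeR). This contig passed the filter on low counts only through the ERF1i libraries and was named for its low p there, so its call is no test of a rise. A KNOX/ELK contig (c33089_g1_i1) had 47 and 16 counts in the GUSi lines, 191 and 618 in the ERF1i lines, and 17 and 20 in the ERF2i lines, a rise of 3.81 (SE 0.67, adjusted p = 0.0339, edgeR).

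As for the protodermal and YABBY contigs, ERF1i-19 was above ERF1i-7, 3.17-fold for KN1-like (2.22 to 4.61) and 3.39-fold for KNOX/ELK (2.88 to 4.01). Both calls were lost when a GUSi or an ERF2i line was left out (GUSi-9, GUSi-10, ERF2i-2, ERF2i-3; highest adjusted p = 0.143 for c23142_g1_i1 and 0.138 for c33089_g1_i1). The no apical meristem family contigs c31582_g3_i2 and c31582_g3_i1, which share reads, fell in ERF1i, the former by 0.84 (SE 0.10, adjusted p = 0.0137) and the latter by 0.71 (SE 0.11, adjusted p = 0.0241). In ERF2i a TCP8-like contig (c27377_g1_i1), of a family that regulates growth and cell division, fell by 1.23 (SE 0.14, adjusted p = 0.00171), and a WUSCHEL-related homeobox 4 contig (c39460_g1_i1), of the vascular cambium, by 1.37 (SE 0.22, adjusted p = 0.00625; 0.0595 without ERF2i-2), all by edgeR.

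Cuticle and wax genes build the coat of the shoot surface, and some also make the suberin of roots. Of 78 tested contigs 10 rose (12.8%) and 0 fell in ERF1i, where 2.65% of all contigs rose, and the median log2 difference of the list was 0.09. In ERF2i 7 rose (8.97%, against 13.2% of all contigs) and 9 fell (11.5%, against 9.88%). The list was drawn by description and also takes in enzymes of other lipids, among them 12 tested 1-acyl-glycerol-3-phosphate acyltransferases, which make membrane lipids, with 0 rises in ERF1i. Without GUSi-9, ERF2i-2 or ERF2i-3 the count of rises was 0, without GUSi-10 it was 2, without ERF1i-7 20 and without ERF1i-19 8.

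Of the 10 rises in ERF1i, 7 were fatty acid elongases of the 3-ketoacyl-CoA synthase (KCS) family, out of 17 tested, 2 were glycerol-3-phosphate acyltransferases and 1 was an ABC transporter. In ERF2i 5 of the same 17 elongases rose and 3 fell. Of all tested contigs 2.65% rose in ERF1i, and 13.2% rose and 9.88% fell in ERF2i. The elongases include c25830_g1_i2 and c25830_g1_i3, contigs of 1 assembly gene that share reads. KCS6-like (c21790_g1_i1), an elongase of wax precursors in *Arabidopsis*, had 602 and 709 counts in the GUSi lines and 1097 and 1018 in the ERF1i lines, a rise of 0.81 (SE 0.11, adjusted p = 0.0192, edgeR). KCS11-like (c17640_g1_i1) had 958 and 1509 counts in the GUSi lines and 2876 and 2462 in the ERF1i lines, a rise of 1.24 (SE 0.20, adjusted p = 0.0286). These elongases were well read in GUSi and their ratio between the ERF1i lines was near 1 (0.973, 0.892 to 1.06, and 0.897, 0.850 to 0.947), unlike the 4 contigs. In ERF2i they differed from GUSi by 0.01 and 0.12 (edgeR, adjusted p = 0.949 and 0.707). Another KCS11-like contig (c25830_g1_i2) rose in both groups, by 0.84 in ERF1i (adjusted p = 0.0311, edgeR) and by 1.35 in ERF2i (adjusted p = 0.00147).

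A glycerol-3-phosphate acyltransferase (c22271_g3_i1), of the enzyme class that makes cutin and suberin monomers, was read almost only in ERF1i, as the 4 contigs were. It had 0 and 1 counts in the GUSi lines, 22 and 40 in the ERF1i lines, and 0 and 2 in the ERF2i lines. Its ratio between the ERF1i lines was 1.91 (1.11 to 3.37), below the 4.31 to 5.02 of the 4 contigs. Of their intervals, it overlaps only that of YABBY 1-like. Its log2 difference from GUSi in ERF1i was 5.73 (SE 0.91, adjusted p = 0.0267, edgeR). It passed the filter on low counts only through its ERF1i counts and was named for its low p there. Its call is thus no test of a rise.

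The list drawn for stomata and trichomes held 37 tested contigs, but 26 of them are trichome birefringence-like, a family of cell wall acetyltransferases that is named for trichomes and works in many tissues, so it says little of leaf and stem epidermis. In ERF1i 0 of the 26 and 0 of the other 11 were called (9 and 3 at an unadjusted p under 0.05, where 20.6% of all contigs were; edgeR). A triptychon and CPC-like contig (c24242_g1_i1), a small MYB factor of trichome and root hair spacing, had 79 and 97 counts in the GUSi lines and 52 and 25 in the ERF1i lines, a log2 difference of −1.07 (SE 0.32, adjusted p = 0.116, edgeR). In ERF2i 2 of the 37 rose (5.41%, against 13.2% of all contigs) and 10 fell (27%, against 9.88%), and 9 of the 10 falls were birefringence-like contigs. Both rises, c33500_g1_i4 by 3.12 (SE 0.16, adjusted p = 0.000336) and c4965_g1_i1 by 3.54 (SE 0.25, adjusted p = 0.000481), are trichome birefringence-like 34 contigs.

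Root genes were called in both directions in ERF1i. Among 34 root epidermis and root hair contigs 0 rose and 1 fell (2.94%), the extensin-like c39606_g1_i1 by 0.61 (SE 0.11, adjusted p = 0.0366, edgeR), with 354 and 332 counts in the GUSi lines and 217 and 196 in the ERF1i lines. Among 91 root tip and ground tissue contigs 5 rose and 4 fell, among them a SCARECROW-like 1 contig (c31160_g1_i1) with a rise of 0.59 (SE 0.10, adjusted p = 0.0316) and a CASP-like contig (c39444_g1_i1) with a fall of 0.69 (SE 0.11, adjusted p = 0.0292). The shares of the latter list, 5.49% and 4.40%, stand beside 2.65% and 1.40% of all contigs; in ERF2i 12 rose and 12 fell (13.2% each). The floral organ MADS list gave 0 calls of 7 in ERF1i (3 at an unadjusted p under 0.05, where 20.6% of all contigs were, by edgeR). By description its tested contigs include AGL61-like (c12259_g2_i1), AGL12-type (c26233_g1_i1) and AGL19-like ones (c22347_g1_i1 and c22347_g1_i2). An AGAMOUS-type contig (c48888_g1_i1) was under the count filter, so the list says little of floral organ genes.

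Green tissue genes are those that leaves and stems express. Of 45 tested contigs 9 rose (20%, against 2.65% of all contigs) and 0 fell (against 1.40%) in ERF1i, with a median log2 difference of 1.21. In ERF2i 5 rose (11.1%, against 13.2% of all contigs) and 1 fell (2.22%, against 9.88%), with a median of 0.07. A chlorophyll a/b binding contig (c10086_g1_i1) had 3 and 4 counts in the GUSi lines, 49 and 45 in the ERF1i lines, and 24 and 44 in the ERF2i lines, and its ratio between the ERF1i lines was 0.962 (0.628 to 1.47). It rose in ERF1i by 3.82 (SE 0.45, adjusted p = 0.0132) and in ERF2i by 3.63 (SE 0.47, adjusted p = 0.00289), both by edgeR, and it was named for its low p.

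Summed over all 120 contigs of the green tissue list, of which 49 were at 0 in every library, levels were 153 and 140 CPM in GUSi, 247 and 306 in the ERF1i lines, and 150 and 197 in the ERF2i lines. The Rubisco small subunit contig c28320_g1_i2 had 1, 0, 3, 13, 4 and 5 counts in the same order. The part of green tissue in the levels of the 4 contigs was not tested. The count of 9 rises was 0 when GUSi-9 or GUSi-10 was left out, 19 and 2 when ERF1i-7 or ERF1i-19 was, and 1 when either ERF2i line was.

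**Figure D4:**
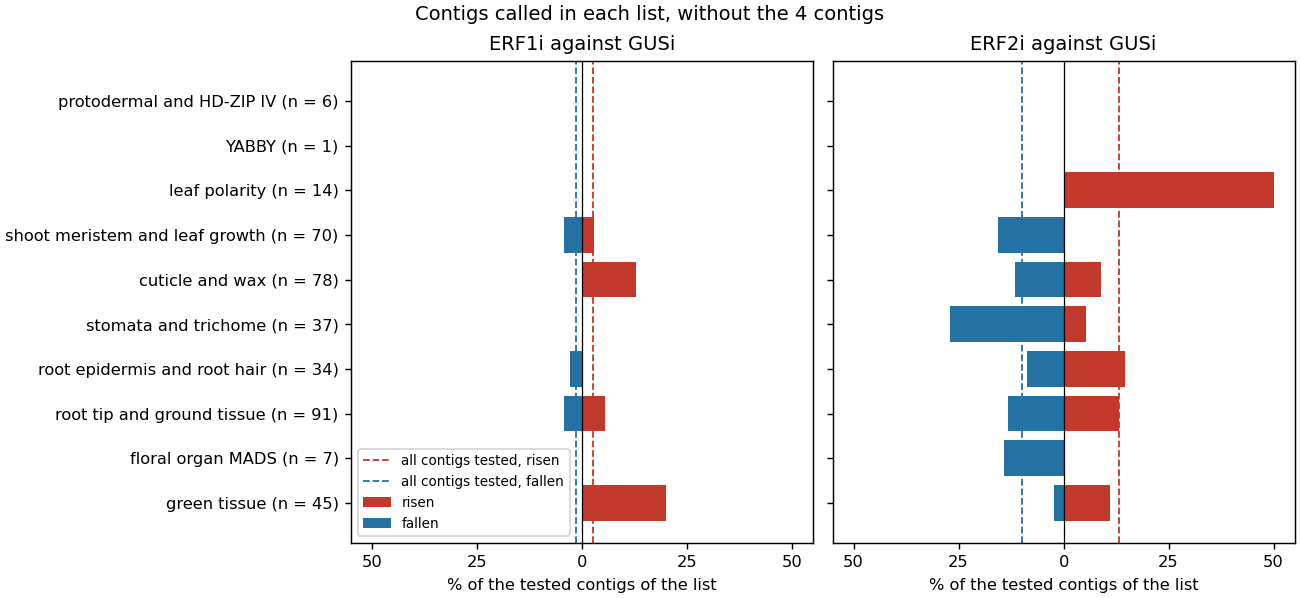
Percent of the tested contigs of each list called as risen (red, to the right) or fallen (blue, to the left) in ERF1i and in ERF2i against GUSi at an adjusted p under 0.05, without the 4 contigs, with the number tested beside each list. Dashed lines mark the same shares over all 33315 tested contigs (2.65% and 1.40% in ERF1i, 13.2% and 9.88% in ERF2i); cuticle and wax (12.8%) and green tissue (20%) lie to the right of the line in ERF1i.

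Over all 10 lists, 26 of 382 tested contigs rose (6.81%) and 8 fell (2.09%) in ERF1i, and 38 rose (9.95%) and 47 fell (12.3%) in ERF2i. Contigs of 1 assembly gene are counted singly in these shares and share reads. Of the 19 contigs named by rule from these lists that were called in ERF1i, 0 kept the call in all 6 fits that left out 1 library (highest adjusted p = 0.182, edgeR), and of 21 called in ERF2i 11 kept it. Single lists moved in the same way: without ERF2i-2 the falls in ERF2i went from 11 to 1 among shoot meristem and leaf growth contigs and from 10 to 2 among stomata and trichome contigs, and without any 1 of the GUSi or ERF2i lines the root tip and ground tissue list had 0 calls in ERF1i.

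The ERF1i lines also differed from the others in a bacterial transcript. Agropine synthesis conjugase (c31834_g1_i1), encoded on the right T-DNA, had 7383 and 7767 counts in the GUSi lines, 2 and 3 in the ERF1i lines, and 17237 and 8951 in the ERF2i lines, while *rolB* of the left T-DNA (c30113_g1_i1) had 654 to 1692 in every library. The lines with the protodermal and YABBY transcripts are thus also those all but without this T-DNA transcript, and the construct, this difference and the lines' separate origin cannot be told apart.

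Across the 6 libraries the 4 contigs followed each other closely. Pearson's r of log2(CPM + 1) was 0.9895 to 0.9999 for the 6 pairs, highest for the YABBY pair. With 6 points, of which 4 lie at or near 0, this is a description, and the points share their libraries. Of 33311 other tested contigs, 40 had an r of at least 0.99 with protodermal factor 1, 49 with protodermal factor 2, 54 with YABBY 4-like and 52 with YABBY 1-like.

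The 5 described contigs most like protodermal factor 1 were a chitinase-like contig (c27247_g1_i1), a zinc finger homeodomain (ZF-HD) factor (c12581_g1_i1), a GIP1-like contig (c14443_g1_i1), the acyltransferase c22271_g3_i1 and a zinc finger protein (c15721_g1_i1), with r of 0.998 to 0.999. The ZF-HD contig had 0 and 0 counts in the GUSi lines, 22 and 53 in the ERF1i lines, and 0 and 1 in the ERF2i lines. The zinc finger contig had 2 and 0 counts in the GUSi lines, 176 and 604 in the ERF1i lines, and 3 and 5 in the ERF2i lines. The chitinase-like contig, by contrast, had 403 and 416 counts in the GUSi lines, so a high r does not mean that a transcript was missing there.

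For protodermal factor 2 they were the same ZF-HD contig, a GDSL esterase/lipase (c6332_g1_i1), of a class that includes cutin synthases, an epoxide hydrolase (c41983_g1_i1), an MLP-like contig (c26256_g1_i1) and an Argonaute PNH1-like contig (c31738_g1_i3). The esterase had 0 counts in both GUSi and both ERF2i lines and 47 and 153 in the ERF1i lines. PNH1-like, the Argonaute that in *Arabidopsis* shields HD-ZIP III transcripts from a microRNA, had 48 and 49 counts in the GUSi lines, 79 and 115 in the ERF1i lines, and 37 and 36 in the ERF2i lines.

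The YABBY pair shared 4 of their 5 contigs: another epoxide hydrolase (c20079_g2_i1), an ERL1-like receptor kinase (c33323_g8_i1), a REM14-like B3 factor (c16985_g2_i1) and an RD22-like contig (c26161_g1_i1), with r of 0.9988 to 0.9997. ERL1-like, of the receptor family that shapes shoots and spaces stomata in *Arabidopsis*, had 51 and 49 counts in the GUSi lines, 179 and 687 in the ERF1i lines, and 42 and 46 in the ERF2i lines. Its ratio between the ERF1i lines was 4.02 (3.41 to 4.77), near that of the 4 contigs. The fifth was the MLP-like contig for YABBY 4-like and an ABC transporter G15-like contig (c23723_g1_i1) for YABBY 1-like.

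**Figure D5:**
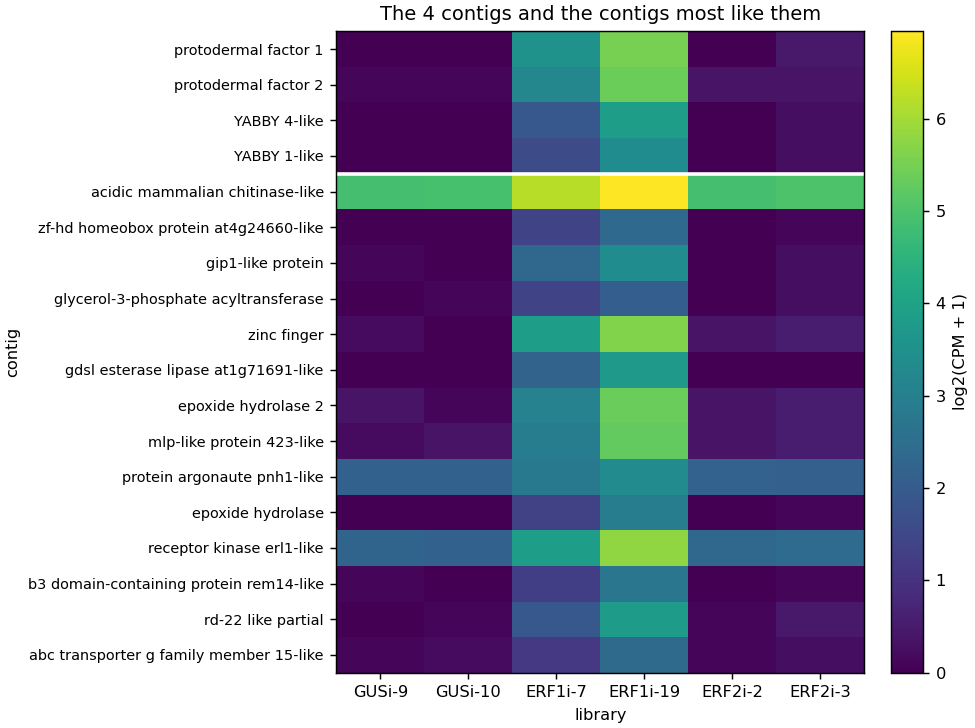
Levels, as log2(CPM + 1), of the 4 contigs (above the line) and of the described contigs most like them by Pearson's r over the 6 libraries (below it). Both ERF1i columns are brighter than the other 4 in every row and ERF1i-19 is the brightest; the chitinase-like, Argonaute PNH1-like and ERL1-like rows are also read in GUSi and ERF2i, the last at 42 to 51 counts.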

How the data were processed

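RNA of 6 hairy root lines was sequenced as paired ends from strand-specific libraries on an Illumina HiSeq instrument; the authors used Bowtie 2.0 to align cleaned reads to contigs assembled *de novo*, and RSEM (version and strand setting: not given in the sources used here) to estimate levels. Per contig and library, the deposited values are an expected count and an FPKM (fragments scaled to effective length and library size). The deposited annotation (Blast2GO 3.0) gives descriptions, best hits with a percent similarity, and the same FPKM; 0 of its columns lacked a sample. The submitters' processing notes name DESeq, the paper DESeq2.

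Expected counts were rounded (1 was not whole) and tested with edgeR 4.0.16 in R 4.3.3: quasi-likelihood, TMM scaling, the default filter by group (minimum count 10, total 15), 6 libraries in 3 groups with 3 residual degrees of freedom, and Benjamini-Hochberg adjustment over 33315 contigs. Each line gave 1 library, so p measures the spread between lines, in which technical and line differences cannot be told apart. Ratios with exact conditional binomial 95% intervals use library totals. Other work used Python 3.11.15, numpy 2.4.6, pandas 2.3.3, scipy 1.17.1 and matplotlib 3.10.9. Alternatives were DESeq2 1.42.0, its size factors, no scaling, no filter, 4 libraries only, limma-trend (3.58.1) on log2(FPKM + 1), sums over 23411 assembly genes, a log2 threshold of 1, and each library left out.

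The 4 contigs and the 10 lists were chosen with earlier results of these data known. Named contigs are the 4, the tested contigs of their families, of each other list the 4 with the lowest p in ERF1i and the 2 with the lowest in ERF2i (not all are printed), *OpERF1*, and the 5 described contigs with the highest r; others are said to be chosen after their values were seen. *OpERF1*, T-DNA and root marker contigs serve as checks of the lines. Contig sequences were not used here.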

Additional observations from a re-analysis of the deposited data

How the results depend on the processing

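In ERF1i against GUSi the 4 contigs had a value in 14 fits. Refits of the counts that chose them could not turn the direction, so only the size is given. The log2 difference was 4.81 to 12.12 (protodermal factor 1), 2.97 to 8.97 (protodermal factor 2), 3.48 to 10.40 (YABBY 4-like) and 3.00 to 9.85 (YABBY 1-like). The lowest values came on log2(FPKM + 1), a scale that understates changes of low contigs. In ERF2i their counts were too few for any fit to bear on them.

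The counts of calls varied between fits. For ERF1i, rises and falls over all contigs were 884 and 468, and 340 and 150 without the filter, 23 and 11 with only 4 libraries, 264 and 182 by limma-trend, and 582 and 254 at a log2 of at least 1. The lists had 26 and 8, and in the same order 3 and 2, 0 and 0, 5 and 4, and 17 and 1; summed over assembly genes 5 list entries fell. Leaving out 1 library gave 36 to 1741 rises and 18 to 1164 falls, and 0 to 67 and 0 to 27 in the lists. For ERF2i, falls over all contigs were 7331 without scaling, 2175 without the filter, 6407 by limma-trend (2754 rises) and 1296 at a log2 of at least 1 (2378 rises). List falls were 30 by DESeq2, 86 without scaling, 30 without the filter, 74 by limma-trend and 28 at a log2 of at least 1 (20 rises). Leaving out 1 library gave 1370 to 5230 rises and 427 to 4465 falls, and 14 to 49 and 7 to 61 in the lists. The causes were not tested, beyond that a fit with 4 libraries has fewer samples.

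Without scaling 28.6% of ERF2i calls and 53.5% of ERF1i calls were rises, against 57.2% and 65.4% with it, and medians over all contigs were −0.24 and −0.07; limma-trend gave 30.1% and −0.20 in ERF2i. With a pseudocount of 0.1 CPM, 14, 16, 20 and 21 contigs had an r of at least 0.99 with protodermal factor 1, protodermal factor 2, YABBY 4-like and YABBY 1-like. No paired analysis was possible because the constructs share no line numbers. Depth limits the contigs under 10 counts, whose ratios are wide.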

Other observations

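Among the lists of shoot meristem, leaf polarity and floral organ genes, 10 contigs had an ERF1i sum above 5 times that of GUSi plus 2 counts. They were chosen after their values were seen and for that comparison, so their excess over GUSi is no result, and 7 of them were too rare for the count filter and have no test. A CUP-SHAPED COTYLEDON 2 contig (c20589_g1_i1), which marks the borders between shoot organs, had 1 and 1 counts in the GUSi lines, 9 and 64 in the ERF1i lines, and 0 in both ERF2i lines. A CUP-SHAPED COTYLEDON 2-like contig (c20589_g3_i1) had 0 and 6, 4 and 33, and 0 and 0, so GUSi-10 lay above ERF1i-7, and a no apical meristem contig (c20589_g2_i2) had 1 and 4 counts in the ERF1i lines and 0 elsewhere. A CLAVATA 3-like contig (c10747_g1_i1), a peptide of shoot stem cells, had 1 and 0 counts in the GUSi lines, 9 and 45 in the ERF1i lines and 0 and 1 in the ERF2i lines. A LEAFY-like contig (c20457_g1_i1), a factor of floral meristems, had 0 in GUSi and ERF2i and 7 and 38 in the ERF1i lines. A WUSCHEL-like contig (c43213_g1_i1), a factor of the stem cell niche, had 0 and 0, 1 and 16, and 1 and 2, and an AGAMOUS-type contig (c48888_g1_i1), a floral organ factor, had 0 and 0, 0 and 3, and 1 and 1; in both the lower ERF1i line did not stand above the ERF2i lines.

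ERF1i-19 exceeded ERF1i-7 7.45-fold for c20589_g1_i1 (95% counting interval 3.69 to 17.0), 8.65-fold for c20589_g3_i1 (3.08 to 33.6), 5.24-fold for CLAVATA 3-like (2.53 to 12.2), 5.69-fold for LEAFY-like (2.51 to 15.1) and 16.8-fold for WUSCHEL-like (2.61 to 703). These intervals are wide and each overlaps those of the 4 contigs.

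In all, 26 contigs had at most 3 counts over the GUSi pair and at least 20 in each ERF1i line, 10 had the reverse, and for ERF2i the numbers were 6 and 0. Beside the 4 contigs, the other 22 of the 26 include 15 with a description. The descriptions are diverse: they name 2 glycerol-3-phosphate acyltransferase contigs, 2 GDSL esterase/lipases, 2 lipid-transfer proteins, 2 RD22-like contigs, a cytochrome P450 94A1-like contig (c41094_g1_i1), an x intrinsic protein (c33349_g4_i1), an epoxide hydrolase, a ZF-HD and another zinc finger factor, a GIP1-like contig and a Pollen Ole e 1 extensin family contig (c7188_g1_i1). No list was fixed for them, so no shared function is read from them. All 22 were higher in ERF1i-19 than in ERF1i-7, 1.12-fold to 8.64-fold (median 3.15), and 18 had at most 3 counts over the ERF2i pair, the others at most 8.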
